A study of Marchantia polymorpha and Arabidopsis thaliana and Oryza sativa Japonica Group with 116 samples.

Results

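Abscisic acid (ABA) is the plant hormone of water and salt stress, and its level in a cell depends on both its synthesis and its breakdown. The genes described here are 10 Arabidopsis loci of that metabolism out of 32853 genes in the Arabidopsis count table, taken by locus identifier: 6 for synthesis (NCED3, NCED5, ABA1, ABA2, ABA3 and AAO3) and 4 for catabolism (CYP707A1 to CYP707A4). Synthesis starts in plastids, where the zeaxanthin epoxidase ABA1 makes epoxycarotenoids that the NCED dioxygenases cleave to xanthoxin, the committed step. In the cytosol the dehydrogenase ABA2 turns xanthoxin into abscisic aldehyde, and the aldehyde oxidase AAO3, which needs a molybdenum cofactor sulfurated by ABA3, oxidises it to ABA. The CYP707A cytochromes P450 hydroxylate ABA to a form that turns into phaseic acid, the main route of inactivation. Their transcripts are known to be induced by ABA itself, and NCED3 is known as the stress-induced NCED of vegetative tissue.

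The loci lie on all 5 chromosomes (TAIR10.1 coordinates). Those of synthesis are NCED3 (AT3G14440, chr3:4831286-4834015), NCED5 (AT1G30100, chr1:10571310-10573365), ABA1 (AT5G67030, chr5:26753469-26757402), ABA2 (AT1G52340, chr1:19489794-19491650), ABA3 (AT1G16540, chr1:5659370-5665488) and AAO3 (AT2G27150, chr2:11601727-11608450). Those of catabolism are CYP707A1 (AT4G19230, chr4:10521259-10523961), CYP707A2 (AT2G29090, chr2:12494826-12499723), CYP707A3 (AT5G45340, chr5:18368532-18371021) and CYP707A4 (AT3G19270, chr3:6673689-6676521). NCED3 and NCED5 are annotated with 1 exon each, and ABA3 with the most, 19.

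Messenger RNA was sequenced from whole Arabidopsis seedlings of the wild type Col-0 and of mutants in heterotrimeric G-protein genes: gpa1-3 (the canonical Gα subunit), agb1-2 (the Gβ subunit) and the triple mutant xlg1,2,3 (the extra-large Gα proteins XLG1, XLG2 and XLG3). The seedlings were 7 days old and stood in liquid, diluted MS medium in constant light. They were taken before treatment (0 h), after 2 h or 24 h in 100 mM NaCl, with 3 libraries in each of these groups, or after 4 h in tunicamycin at 0.3 µg/mL, with 2 libraries in each group. Tunicamycin stops the N-glycosylation of proteins and so causes stress in the endoplasmic reticulum. This gave 44 libraries in 16 groups, which the study names biological replicates. No group of untreated seedlings was sampled at 2, 4 or 24 h, so treatment and elapsed time cannot be told apart. In RNA of whole seedlings, fewer cells of a type and less RNA per cell cannot be told apart either.

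The libraries held 14.1 to 39.0 M counts, and every library numbered 3 was the shallowest of its group. Green tissue markers (5 genes) summed to between 12950 and 27620 CPM (counts scaled to library size, per M counts). GPA1 was lower in gpa1-3 than in Col-0 at 0 h (16.3 against 118.5 CPM), and XLG2 and XLG3 were lower in xlg1,2,3. XLG1 went against the label at 0 h, at 113.8 CPM in xlg1,2,3 against 68.5 CPM in Col-0, and at 2 h (69.4 against 58.5 CPM). It was not called at 24 h (edgeR adjusted p = 0.437) and was lower after tunicamycin (71.6 against 87.9 CPM, edgeR adjusted p = 0.0282). AGB1 in the libraries labelled agb1-2 was not lower at 0 h (138.9 against 129.7 CPM), was lower at 2 h and 24 h, and was higher after tunicamycin (112.1 against 72.1 CPM). Directions drawn from that genotype are therefore those of the libraries labelled agb1-2, and those from xlg1,2,3 rest on libraries with the XLG1 levels above.

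Each gene was tested with edgeR's quasi-likelihood test over all 44 libraries, with Benjamini-Hochberg adjustment over the 20858 genes that passed the filter on low counts, and was called at an adjusted p under 0.05. Changes are log2 values with their standard error (SE). Of the 10 genes, 9 passed the filter. NCED5, an NCED known mainly from seeds, did not: it had counts in 10 of 44 libraries, 19 counts in all and at most 5 in a library, and no change was detectable at this depth.

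CYP707A1 and CYP707A3 stood apart in their upstream sequence. Among the 45 pairs of these 10 genes, the 300 bases before the annotated gene start shared a run of 23 bases in this pair, while the next longest run in any pair was 12 bases and the median was 9. The windows below were read from the TAIR10.1 genome on the strand of each gene, CYP707A1 at chr4:10520959-10521258 (plus strand) and CYP707A3 at chr5:18371022-18371321 (minus strand), and overlap no annotated gene. They are shown because in Col-0 both genes fell at 2 h of NaCl and then parted, with CYP707A3 above and CYP707A1 below its 0 h level at 24 h. Capitals mark matches, on either strand, to the G-box CACGTG, which contains the ABRE core ACGTG, and to the W-box core TTGAC.
CYP707A1 upstream: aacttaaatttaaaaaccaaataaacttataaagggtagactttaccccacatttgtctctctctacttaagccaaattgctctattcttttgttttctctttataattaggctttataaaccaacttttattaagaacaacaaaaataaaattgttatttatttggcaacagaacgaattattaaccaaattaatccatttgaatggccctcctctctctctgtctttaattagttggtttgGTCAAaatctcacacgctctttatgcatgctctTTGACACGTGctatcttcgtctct
CYP707A3 upstream: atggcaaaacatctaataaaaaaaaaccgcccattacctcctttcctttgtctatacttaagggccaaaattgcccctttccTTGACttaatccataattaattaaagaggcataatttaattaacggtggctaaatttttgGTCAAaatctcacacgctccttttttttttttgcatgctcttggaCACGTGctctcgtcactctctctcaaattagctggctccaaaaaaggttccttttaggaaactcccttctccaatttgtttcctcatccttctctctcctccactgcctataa
shared run: tttggtcaaaatctcacacgctc
The shared run began 61 bases before the start of CYP707A1 and 162 bases before that of CYP707A3. Of 26694 upstream windows of this length, 2 held it, and these are the windows of this pair. Each of the pair held 1 G-box, at 20 bases before the start in CYP707A1 and at 113 bases in CYP707A3, and 7.19% of all windows hold one. ABA3 held 2 G-boxes, and the ABRE core was in the windows of ABA1, ABA3, CYP707A1, CYP707A3 and CYP707A4, against 25.8% of all windows. No match to the ABRE core was found in the window of NCED3, AAO3 or CYP707A2. A match is a description of letters and not a bound site.

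In untreated Col-0 the synthesis genes covered a wide range of levels per transcript length. As reads per kilobase of exon per M counts (RPKM, mean ± SD, n = 3), ABA1 stood highest at 64.6 ± 8.21, followed by AAO3 at 16.9 ± 0.365 and ABA3 at 9.60 ± 0.776. ABA2 stood at 4.77 ± 0.513 RPKM and NCED3 at 1.03 ± 0.170 RPKM. NCED3, the gene of the committed step, was thus the lowest of the tested synthesis genes. Among the hydroxylases CYP707A1 was highest at 17.9 ± 4.16 RPKM, above CYP707A3 at 7.54 ± 1.88, CYP707A2 at 3.06 ± 0.337 and CYP707A4 at 1.82 ± 0.262 RPKM. Across the 16 group means in CPM, NCED3 varied most, by 20.4-fold between its lowest and its highest group. It was followed by CYP707A3 (18.3-fold), CYP707A2 (11.7-fold), CYP707A1 (11-fold) and CYP707A4 (9.44-fold). The lowest NCED3 group, libraries labelled agb1-2 at 0 h, read 1.83, 1.91 and 0.196 CPM, the last from 3 counts. The next lowest NCED3 mean was 1.48 CPM, in Col-0 after tunicamycin, so the rank of NCED3 above CYP707A3 depends on that 1 library. ABA3 varied least, by 1.77-fold, next to ABA2 at 1.86-fold.

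**Figure D1:**
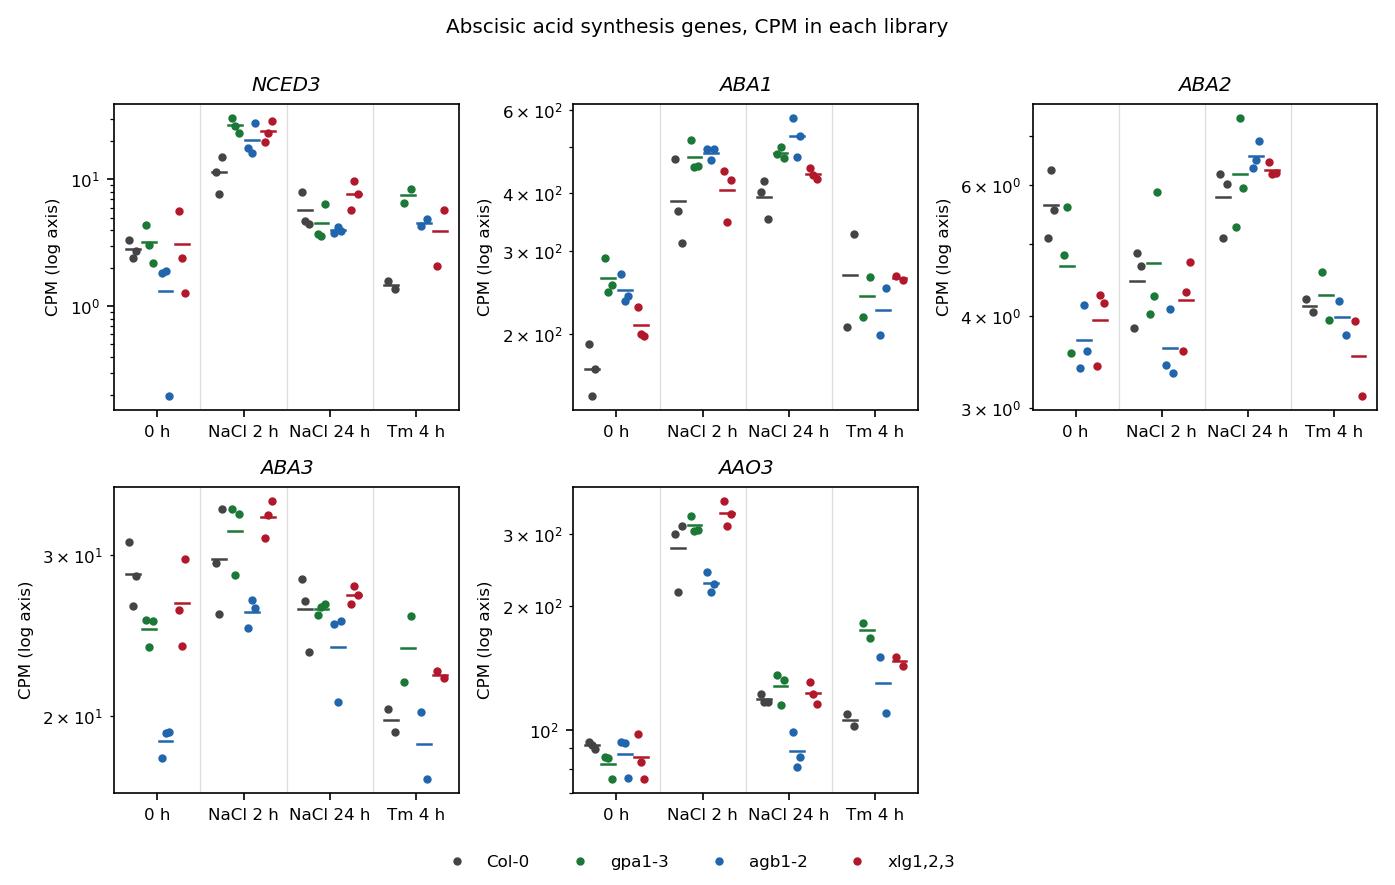
Level of the 5 tested synthesis genes in each library (points, CPM, log axis) with the group mean (line), by treatment and genotype. NCED3 and AAO3 stand highest at 2 h of NaCl in each genotype, and ABA1 is higher at 2 h and 24 h of NaCl than at 0 h in each genotype.

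The first comparison asked how the ABA genes of the wild type respond to salt. After 2 h of NaCl, 7 of the 9 tested genes were called in Col-0, where 56.3% of all genes tested were called: 5 rose (NCED3, ABA1, AAO3, CYP707A2 and CYP707A4) and 2 fell (CYP707A1 and CYP707A3). That share is high, so the count of called genes says little about this list and the sizes of the changes matter more. The median change over the 9 genes was 1.19 on the log2 scale. Over all genes it was -0.01, where rises and falls cancel, and the median size without sign was 0.47. The 9 genes were chosen with earlier results of these data known, so these medians are a description.

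NCED3 read 3.32, 2.41 and 2.72 CPM in the 3 Col-0 libraries at 0 h and 11.5, 7.69 and 15 CPM at 2 h. All salt libraries lay above all untreated ones, and the change was 1.99 (SE 0.39, 3.96-fold, edgeR adjusted p = 5.33e-05). AAO3 read 93.5, 91.5 and 89.5 CPM at 0 h and 299.8, 217 and 314 CPM at 2 h. Its groups were well apart as well, with a change of 1.60 (SE 0.12, 3.03-fold, edgeR adjusted p = 1.25e-13). ABA1 went from 168 ± 21.4 to 384 ± 81.7 CPM (SD, n = 3), a change of 1.19 (SE 0.14, edgeR adjusted p = 5.3e-09). The 2 enzymes between and beside these steps were not called: ABA2 changed by -0.35 (SE 0.15, edgeR adjusted p = 0.0551) and ABA3 by 0.05 (SE 0.10, edgeR adjusted p = 0.697).

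The hydroxylases split into pairs. CYP707A2, known for its part in seeds at germination, read 8.04, 6.63 and 6.73 CPM at 0 h and 42.9, 35.4 and 32.9 CPM at 2 h. CYP707A4 read 2.90, 2.93 and 3.71 CPM at 0 h and 24.1, 16.3 and 20.4 CPM at 2 h. Both had every salt library above every untreated library, and they rose by 2.37 (SE 0.15, 5.18-fold) and 2.7 (SE 0.16, 6.49-fold), which for CYP707A4 was the largest change among the 9 genes. CYP707A1 and CYP707A3, known as hydroxylases of vegetative tissue, moved down. CYP707A1 went from 47.7, 34.8 and 30.8 CPM to 18.7, 19.2 and 21.5 CPM, a fall by 0.94 (SE 0.26, 1.92-fold lower, edgeR adjusted p = 0.00209). CYP707A3 went from 17.6, 11 and 17.7 CPM to 5.18, 5.18 and 6.32 CPM, a fall by 1.48 (SE 0.52, 2.79-fold lower, edgeR adjusted p = 0.015). Neither gene's groups overlapped, but the call of CYP707A3 ended without salt replicate 1 (edgeR adjusted p = 0.0518). Root markers (8 genes) moved with salt, from a sum of 24.8 to 27.9 CPM in Col-0 at 0 h to 60.5 to 71.7 CPM at 2 h, and guard cell markers (4 genes) from 46.5 to 51.1 CPM to 19.6 to 30.8 CPM. The sums do not show that each marker moved alike. Of the root markers, COBL9 had no counts in 8 of the 44 libraries, TIP2;3 in 4 and EXPA7 in 3. Phloem markers (2 genes) went from 79.5 to 90.3 CPM to 52.4 to 68.1 CPM. At 24 h the sums in Col-0 were 46.4 to 58.9 CPM for root, 20.5 to 28.9 CPM for guard cell markers, and at most 72.6 CPM for phloem markers. Their part in the salt results was not tested.

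**Figure D2:**
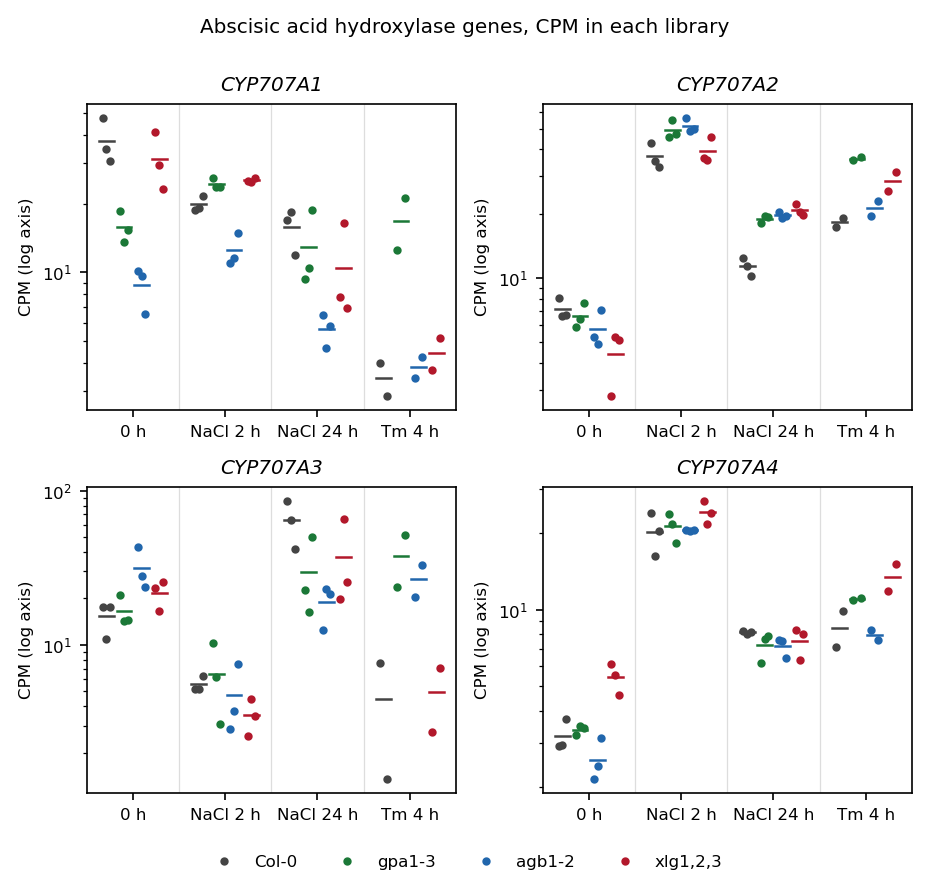
Level of the 4 hydroxylase genes in each library (points, CPM, log axis) with the group mean (line), by treatment and genotype. CYP707A2 and CYP707A4 stand highest at 2 h of NaCl in every genotype, CYP707A3 is low at 2 h and reaches 86.0 CPM in Col-0 at 24 h, and CYP707A1 after tunicamycin is higher in gpa1-3 than elsewhere.

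After 24 h of NaCl, 7 of the 9 genes were called in Col-0, 6 higher than at 0 h and 1 lower, where 57.8% of all genes tested were called. The pattern differed from 2 h mainly in CYP707A3. It read 86.0, 64.4 and 42.1 CPM, above every 0 h and 2 h library of Col-0, and rose by 2.07 against 0 h (SE 0.48, 4.21-fold, edgeR adjusted p = 0.000408) and by 3.55 against 2 h (11.7-fold, edgeR adjusted p = 9.73e-07). CYP707A1, which shares the 23-base run with it, stayed low at 17.0, 18.3 and 11.8 CPM and was lower than at 0 h by 1.26 on the log2 scale (a fall by 1.26, SE 0.26, edgeR adjusted p = 9.61e-05). From 2 h to 24 h it changed by -0.32 and was not called (edgeR adjusted p = 0.316). CYP707A2 and CYP707A4 came down again between these times, 3.27-fold and 2.49-fold lower, and remained above 0 h by 0.66 (SE 0.16) and 1.38 (SE 0.16). Seed markers in Col-0 at 24 h summed to 90.1, 0.498 and 0.439 CPM in replicates 1, 2 and 3. Replicate 1 also read highest of this group for CYP707A3 and for NCED3. The call of CYP707A3 against 0 h was kept without it, and the part of these markers was not tested.

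On the synthesis side ABA1 stood at 392 ± 36.4 CPM (SD, n = 3) at 24 h, a rise by 1.22 against 0 h, and its change from 2 h to 24 h was not called (edgeR adjusted p = 0.867). AAO3 fell back 2.33-fold from 2 h to 119 ± 3.30 CPM, a rise by 0.38 over 0 h (SE 0.11, edgeR adjusted p = 0.00563). NCED3 read 7.94, 4.66 and 4.45 CPM at 24 h. These values lie above all 0 h libraries, with a change of 1.02 (SE 0.40, edgeR adjusted p = 0.0289), but the call ended without 0 h replicate 2, 0 h replicate 3 or 24 h replicate 1, with a change down to 0.69 and an edgeR adjusted p up to 0.202. Against 2 h, 6 of the 9 genes were called, 2 higher and 4 lower, where 50.8% of all genes were called. NCED3 was 1.95-fold lower at 24 h than at 2 h (edgeR adjusted p = 0.0282), with overlapping libraries, and 4 of 6 single libraries left out ended that call. ABA2 was higher at 24 h than at 2 h, by 0.38 (edgeR adjusted p = 0.0429) and without overlap, a call that also ended for 4 of 6 single libraries left out. Against 0 h, ABA2 and ABA3 changed by 0.03 and -0.13 and were not called.

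In each mutant NCED3, ABA1, AAO3, CYP707A2 and CYP707A4 were called higher after 2 h of NaCl and CYP707A3 lower, the directions called in Col-0. The size of the response was called different from Col-0 in 6 of 27 direct tests, all positive, which are given with the other differences of responses. Of 27 tests of the 9 genes in the 3 mutants, 19 were called higher and 3 lower, where 53.5% of all genes were called in gpa1-3, 54.3% in libraries labelled agb1-2 and 54.3% in xlg1,2,3. NCED3 rose by 3.02 in gpa1-3, to 30.6, 26.1 and 23.3 CPM. In libraries labelled agb1-2 it rose by 3.76, to 17.6, 16.1 and 27.7 CPM. In xlg1,2,3 it rose by 2.85 (3.59 without 0 h replicate 1), to 19.6, 23.3 and 28.9 CPM. At 0 h libraries labelled agb1-2 read 1.83, 1.91 and 0.196 CPM of NCED3, the last from 3 counts in replicate 3. That library enters every NCED3 response, and every difference of NCED3 responses, given for this genotype. AAO3 rose by between 1.39 and 1.98 and ABA1 by between 0.86 and 0.98. CYP707A2 rose by 2.90 in gpa1-3, 3.20 in libraries labelled agb1-2 and 3.17 in xlg1,2,3, and CYP707A4 by 2.67, 3.04 and 2.15 in the same order. CYP707A3 fell in each, by 1.29 in gpa1-3, 2.85 in libraries labelled agb1-2 and 2.65 in xlg1,2,3. The gpa1-3 call (edgeR adjusted p = 0.0294) ended for 3 of 6 single libraries left out, with an edgeR adjusted p up to 0.128. ABA3, not called in Col-0, rose by 0.36, 0.47 and 0.32, the last a call that ended without xlg1,2,3 replicate 2 at 0 h (edgeR adjusted p = 0.0523). ABA2 changed by -0.03, -0.03 and 0.08 and was not called. CYP707A1 was the gene without a common direction. It rose by 0.62 in gpa1-3 (edgeR adjusted p = 0.0405), a call that 5 of 6 single libraries left out ended. In the other mutants it was not called (0.47 and -0.32). Seed markers in gpa1-3 summed to 101.1 to 205.0 CPM at 0 h and 0.5 to 1.52 CPM at 2 h. Those 0 h libraries are the reference of each gpa1-3 response, and the part of these markers was not tested.

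After 24 h, 17 of the 27 mutant tests were called higher and 2 lower, against backgrounds of 57.1%, 60.2% and 60.6% called in gpa1-3, libraries labelled agb1-2 and xlg1,2,3. ABA1 rose in each mutant by between 0.89 and 1.09. CYP707A2 stood at 18.9 ± 0.832 CPM in gpa1-3, 19.7 ± 0.566 in libraries labelled agb1-2 and 20.8 ± 1.31 in xlg1,2,3 (SD, n = 3 each). Its rise over 0 h was 1.53, 1.81 and 2.26. CYP707A3, the gene with the largest rise in Col-0 at this time, was not called in any mutant: it changed by 0.81 in gpa1-3, -0.75 in libraries labelled agb1-2 and 0.77 in xlg1,2,3. Its libraries were spread within groups, at 22.6, 16.3 and 50.0 CPM in gpa1-3 and 19.9, 65.6 and 25.4 CPM in xlg1,2,3. Against Col-0 at 24 h it was not called in gpa1-3 (-1.14, edgeR adjusted p = 0.133) or xlg1,2,3 (-0.79, edgeR adjusted p = 0.238), with overlapping libraries. It was called there without gpa1-3 replicate 3 or xlg1,2,3 replicate 2 at 24 h. Its difference of responses was called in libraries labelled agb1-2 alone, so a smaller rise in the other mutants is not shown. CYP707A4 rose by 1.09 in gpa1-3, 1.54 in libraries labelled agb1-2 and 0.46 in xlg1,2,3, the last a call that ended without replicate 1 at 24 h or replicate 3 at 0 h. CYP707A1 fell by 1.59 in xlg1,2,3 and by 0.66 in libraries labelled agb1-2, and 4 of 6 single libraries left out ended the second call. NCED3 rose by 1.42 in libraries labelled agb1-2 and by 1.22 in xlg1,2,3 (1.96 without 0 h replicate 1), and in gpa1-3 it changed by 0.42 and was not called. AAO3 rose by 0.63 in gpa1-3 and 0.52 in xlg1,2,3. ABA3 rose in libraries labelled agb1-2, by 0.34 (edgeR adjusted p = 0.00321), and was not called in the other mutants. ABA2 rose by 0.82 in libraries labelled agb1-2 and by 0.68 in xlg1,2,3. In gpa1-3 it was called at 0.39, but its groups overlapped and the call ended for 3 of 6 single libraries left out.

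**Figure D3:**
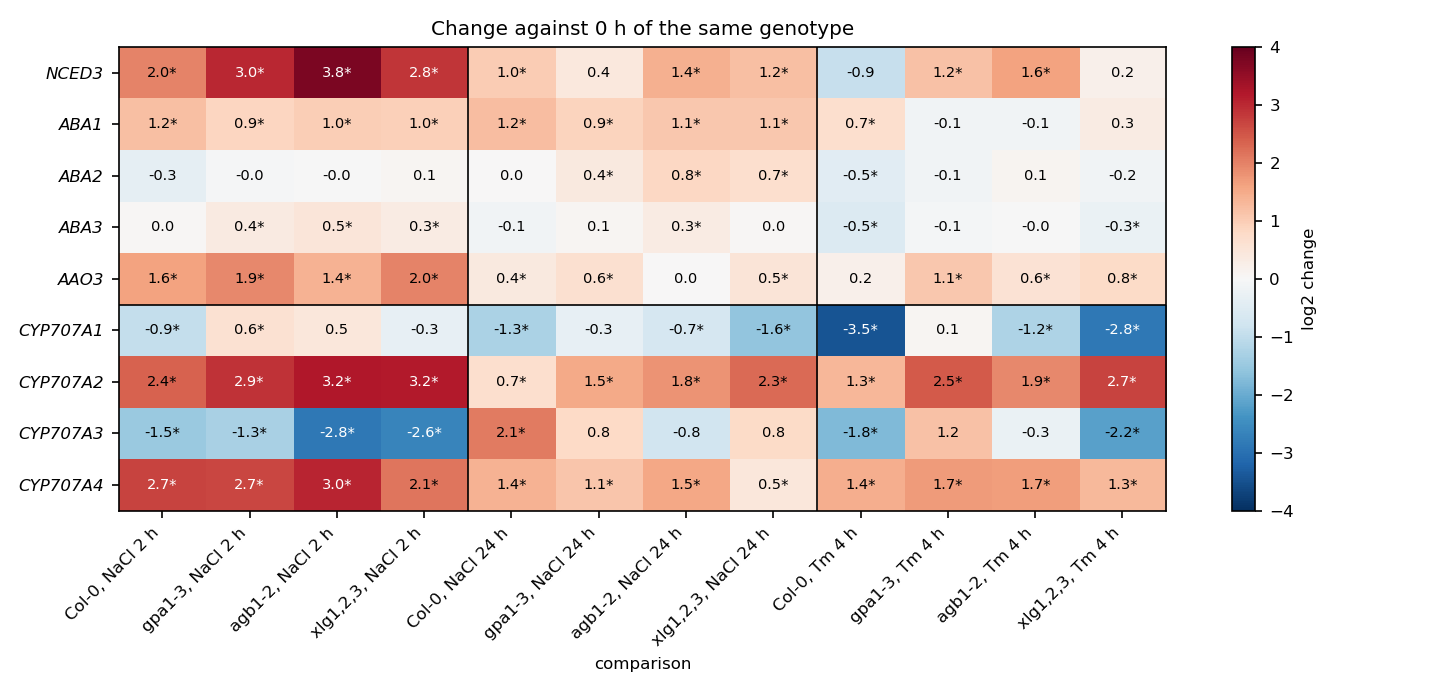
Log2 change of the 9 tested genes against 0 h of the same genotype (colour and number), for 2 h and 24 h of NaCl and 4 h of tunicamycin. An asterisk marks an edgeR adjusted p under 0.05. The rows of CYP707A2 and CYP707A4 are positive throughout, and those of CYP707A1 and CYP707A3 hold both signs.

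Tunicamycin was used as a stress of another kind. In Col-0 7 of the 9 genes were called after 4 h, 3 higher and 4 lower, where 55.8% of all genes were called, and the median change over the 9 genes was -0.45. The largest change was in CYP707A1, which went from 47.7, 34.8 and 30.8 CPM to 4.01 and 2.85 CPM. It fell by 3.46 (SE 0.34, 11-fold lower, edgeR adjusted p = 2.23e-10). CYP707A3 read 7.59 and 1.35 CPM against 11 to 17.7 CPM at 0 h, a fall by 1.76 (edgeR adjusted p = 0.0116) whose call ended without tunicamycin replicate 2 (a fall by 1.01, edgeR adjusted p = 0.228), while without replicate 1 it fell by 3.5. CYP707A2 rose by 1.34 to 17.2 and 19.1 CPM, and CYP707A4 by 1.44 to 7.14 and 9.88 CPM. The tissue markers moved with tunicamycin in Col-0: phloem markers summed to 37.0 and 43.9 CPM, guard cell markers to 21.3 and 24.8 CPM and root markers to 60.6 and 70.8 CPM, against the 0 h sums given above. Their part in the tunicamycin results was not tested.

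Among the synthesis genes ABA3 fell by 0.53 to 20.4 and 19.2 CPM, below each of the 3 libraries at 0 h. ABA2 fell by 0.45 (edgeR adjusted p = 0.0256), a call that ended without 0 h replicate 2 or either tunicamycin library. ABA1 was called higher by 0.66, at 207 and 326 CPM against 147 to 189.7 CPM, but without tunicamycin replicate 2 the change was 0.30 (edgeR adjusted p = 0.144). NCED3 read 1.58 and 1.38 CPM, below each library at 0 h, and its change of -0.93 (SE 0.50) was not called (edgeR adjusted p = 0.117). It was called in a fit to the compared groups alone (a fall by 0.94, edgeR adjusted p = 0.00554). AAO3 changed by 0.21 and was not called.

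The mutants responded to tunicamycin with 11 of 27 tests called higher and 4 lower, where 49.5% of all genes were called in gpa1-3, 43.9% in libraries labelled agb1-2 and 51.4% in xlg1,2,3. AAO3 rose in each: by 1.09 in gpa1-3, 0.57 in libraries labelled agb1-2 (not called without tunicamycin replicate 1, edgeR adjusted p = 0.0843) and 0.78 in xlg1,2,3. NCED3 rose by 1.18 in gpa1-3 and 1.61 in libraries labelled agb1-2, and changed by 0.20 in xlg1,2,3, where it was not called. The gpa1-3 call of NCED3 ended without 0 h replicate 2, 0 h replicate 3 or tunicamycin replicate 2. CYP707A1 fell by 2.85 in xlg1,2,3 and by 1.23 in libraries labelled agb1-2 (not called without tunicamycin replicate 1, edgeR adjusted p = 0.0538), and in gpa1-3 it changed by 0.08 and was not called. CYP707A3 fell by 2.17 in xlg1,2,3, to 2.73 and 7.14 CPM, a call that ended without tunicamycin replicate 1 (edgeR adjusted p = 0.0827), while without replicate 2 it fell by 2.99. It changed by 1.16 in gpa1-3 and -0.25 in libraries labelled agb1-2 and was not called there. ABA3 was lower in xlg1,2,3 (a fall by 0.25), a call that ended for 4 of 5 single libraries left out. CYP707A2 rose by 2.46 in gpa1-3, 1.91 in libraries labelled agb1-2 and 2.71 in xlg1,2,3, and CYP707A4 by 1.7, 1.67 and 1.3. ABA1 and ABA2 were not called in any mutant, and ABA2 changed by -0.15, 0.10 and -0.15.

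The next comparisons set each mutant against Col-0 at the same time. They share the Col-0 libraries, so their values are given side by side. At 0 h, 3 of 27 tests were called higher and 6 lower, where 13.7% of all genes were called in gpa1-3, 31.6% in libraries labelled agb1-2 and 16.3% in xlg1,2,3. CYP707A1 was the gene with the largest difference. It read 18.6, 13.6 and 15.3 CPM in gpa1-3 and 10.08, 9.65 and 6.58 CPM in libraries labelled agb1-2, all below the lowest Col-0 library at 30.8 CPM, and was 2.39-fold lower (edgeR adjusted p = 0.000727) and 4.24-fold lower (edgeR adjusted p = 3.62e-07). In xlg1,2,3 it read 41.4, 29.5 and 23.3 CPM, overlapped Col-0 and was not called.

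ABA1 was higher at 0 h by 0.65 in gpa1-3 (245 to 289.8 CPM) and by 0.56 in libraries labelled agb1-2 (235 to 269 CPM), against 147 to 189.7 CPM in Col-0. In libraries labelled agb1-2, ABA2 was lower (a fall by 0.60 against Col-0) and ABA3 was lower (a fall by 0.61, edgeR adjusted p = 1.09e-05). In xlg1,2,3 CYP707A4 was 1.76-fold higher, at 6.13, 5.52 and 4.61 CPM against 2.90 to 3.71 CPM, and CYP707A2 was 1.66-fold lower. ABA2 was 1.44-fold lower in xlg1,2,3, a call that ended without xlg1,2,3 replicate 1 or Col-0 replicate 2. At 0 h the seed markers (5 genes) summed to 101.1 to 205.0 CPM in gpa1-3 and 0.247 to 0.525 CPM in Col-0, and the guard cell markers to 106.4 to 124.1 CPM in libraries labelled agb1-2, 136.7 to 169.4 CPM in xlg1,2,3 and 46.5 to 51.1 CPM in Col-0. Green tissue markers summed to 21680 to 24050 CPM in gpa1-3 and 22920 to 23560 CPM in libraries labelled agb1-2, the genotypes with higher ABA1, against 17160 to 19280 CPM in Col-0 and 16330 to 17330 CPM in xlg1,2,3. Phloem markers were lower in gpa1-3, at 51.9 to 61.4 CPM against 79.5 to 90.3 CPM in Col-0. The part of these markers in the differences at 0 h was not tested. Within xlg1,2,3 the seed marker sum was 105.2, 0.552 and 62.9 CPM in replicates 1, 2 and 3, and its part was not tested either.

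At 2 h of NaCl, 5 of 27 tests were called higher than Col-0 and 1 lower, where 22.0% of all genes were called in gpa1-3, 34.1% in libraries labelled agb1-2 and 14.0% in xlg1,2,3. NCED3 was 2.38-fold higher in gpa1-3 (1.25, SE 0.35, edgeR adjusted p = 0.00743) and 2.12-fold higher in xlg1,2,3 (1.08, edgeR adjusted p = 0.031), with all mutant libraries above the highest Col-0 library at 15 CPM. In libraries labelled agb1-2 the difference was 0.85 (edgeR adjusted p = 0.0559) and was not called, although these libraries also lay above 15 CPM. The gpa1-3 call ended without Col-0 replicate 2 (edgeR adjusted p = 0.0725), and the xlg1,2,3 call without Col-0 replicate 1 or 2 or xlg1,2,3 replicate 2 or 3. CYP707A2 was higher by 0.40 in gpa1-3 and 0.47 in libraries labelled agb1-2. The first call ended when any of 4 single libraries was left out, and the second without Col-0 replicate 3. Libraries labelled agb1-2 were also called higher for ABA1, by 0.35, with overlapping groups, and 1.6-fold lower for CYP707A1, and each of these calls ended for 5 of 6 single libraries left out. With the replicate number as a block, AAO3 was lower in libraries labelled agb1-2 (a fall by 0.28, edgeR adjusted p = 0.0175), a pair of groups whose same-numbered libraries deviated together. Markers differed at 2 h too: guard cell markers summed to 70.3 to 91.8 CPM in xlg1,2,3 and 62.4 to 76 CPM in libraries labelled agb1-2, against 19.6 to 30.8 CPM in Col-0. Root markers summed to 32.6 to 43.3 CPM in gpa1-3 against 60.5 to 71.7 CPM in Col-0. Green tissue markers summed to 21180 to 24530 CPM in libraries labelled agb1-2 and 19440 to 22020 CPM in gpa1-3. In Col-0 they summed to 15190 to 15780 CPM and in xlg1,2,3 to 12950 to 13370 CPM. Seed markers summed to 0.591 to 145.1 CPM in xlg1,2,3 and 0.831 to 38.0 CPM in libraries labelled agb1-2, against 0.546 to 0.644 CPM in Col-0. Their part in the differences at 2 h was not tested.

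At 24 h, 4 of 27 tests were called higher and 3 lower, where 7.93%, 35.4% and 19.5% of all genes were called in the same order of mutants. CYP707A2 was the hydroxylase gene called higher in each mutant, by 0.74 in gpa1-3, 0.79 in libraries labelled agb1-2 and 0.87 in xlg1,2,3. Its lowest mutant library, at 18.0 CPM, lay above its highest Col-0 library at 12.3 CPM. Seed markers at 24 h summed to 0.502, 551 and 0.573 CPM in replicates 1, 2 and 3 of gpa1-3. They summed to 0.732, 73.9 and 3.26 CPM in libraries labelled agb1-2 and 90.1, 0.498 and 0.439 CPM in Col-0. Their part was not tested. Libraries labelled agb1-2 were also lower than Col-0 at 24 h for CYP707A1 (2.81-fold), CYP707A3 (3.41-fold) and AAO3 (1.34-fold), and higher for ABA1 by 0.43, a call that ended without replicate 1 of libraries labelled agb1-2 or Col-0 replicate 3. Guard cell markers at 24 h summed to 52.6 to 57.4 CPM in libraries labelled agb1-2 and 56.4 to 65.7 CPM in xlg1,2,3 against 20.5 to 28.9 CPM in Col-0, and their part was not tested.

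After tunicamycin, 10 of 27 tests were called, all higher than Col-0, where 19.9% of all genes were called in gpa1-3 (9.69% higher), 8.87% in libraries labelled agb1-2 (4.16% higher) and 13.2% in xlg1,2,3 (5.54% higher). Of the 10, 5 were in gpa1-3. NCED3 read 6.52 and 8.46 CPM in gpa1-3 against 1.58 and 1.38 CPM in Col-0, 5.01-fold higher (edgeR adjusted p = 0.000968). CYP707A1 read 12.5 and 21.1 CPM against 4.01 and 2.85 CPM, 4.85-fold higher (edgeR adjusted p = 1.53e-05). CYP707A3 read 23.6 and 51.3 CPM against 7.59 and 1.35 CPM, 8.27-fold higher (3.05 on the log2 scale, edgeR adjusted p = 0.000598). With 1 library left out this log2 difference ran from 2.29 to 4.79. It was not called in a fit to the compared groups alone (3.08, edgeR adjusted p = 0.0642). For NCED3, CYP707A1 and CYP707A3 both gpa1-3 libraries lay above both Col-0 libraries. AAO3 was 1.66-fold and CYP707A2 1.99-fold higher in gpa1-3. Seed markers summed to 160.9 CPM in gpa1-3 replicate 1 and 0.746 CPM in replicate 2, and their part was not tested.

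In libraries labelled agb1-2, CYP707A3 was 5.92-fold higher than Col-0 after tunicamycin, at 20.4 and 33.1 CPM, and NCED3 3.06-fold higher. In a fit to the compared groups alone the CYP707A3 difference was not called (2.59, edgeR adjusted p = 0.0643). The NCED3 call ended when any of its 4 libraries was left out (edgeR adjusted p up to 0.263), and the CYP707A3 call without replicate 2 of either genotype, with a log2 difference between 1.81 and 4.3 against 2.56 in all libraries. In xlg1,2,3 the called genes were CYP707A4 (1.58-fold), CYP707A2 (1.56-fold) and AAO3 (1.39-fold), with 25.5 and 31.1 CPM of CYP707A2 against 17.2 and 19.1 CPM in Col-0. The CYP707A4 call ended in a fit to the compared groups alone (edgeR adjusted p = 0.103). Leaving out 1 library ended the AAO3 call in each of 4 cases and the other calls in 2 of 4 each. With 2 libraries per group the spread was estimated from all 16 groups, so these tests take each pair to be as variable as the rest. After tunicamycin guard cell markers summed to 43.9 and 49.3 CPM in libraries labelled agb1-2 and 64.7 and 69.6 CPM in xlg1,2,3 against 21.3 and 24.8 CPM in Col-0, and their part was not tested.

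The difference between responses was also tested directly, as the mutant's change minus that of Col-0. At 2 h of NaCl 6 of 27 tests were called, all positive, where 4.79% of all genes were called in gpa1-3 (2.09% positive), 13.2% in libraries labelled agb1-2 (5.8% positive) and 2.63% in xlg1,2,3 (1.35% positive). CYP707A1 had differences of 1.56 in gpa1-3 and 1.41 in libraries labelled agb1-2. In both cases the mutant's 0 h level was the lower one, as given above. At 24 h 5 were called positive and 2 negative, where 5.69%, 23.6% and 9.23% were called. CYP707A2 was positive in each mutant (0.87 in gpa1-3, 1.14 in libraries labelled agb1-2, 1.60 in xlg1,2,3), and CYP707A3 was negative in libraries labelled agb1-2, at -2.82 (SE 0.67, edgeR adjusted p = 0.00238). After tunicamycin 10 were called positive and 2 negative, where 15.9%, 11.4% and 5.71% were called. Of these, 7 were in gpa1-3, led by CYP707A1 at 3.54 (SE 0.43, edgeR adjusted p = 2.33e-06).

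**Figure D4:**
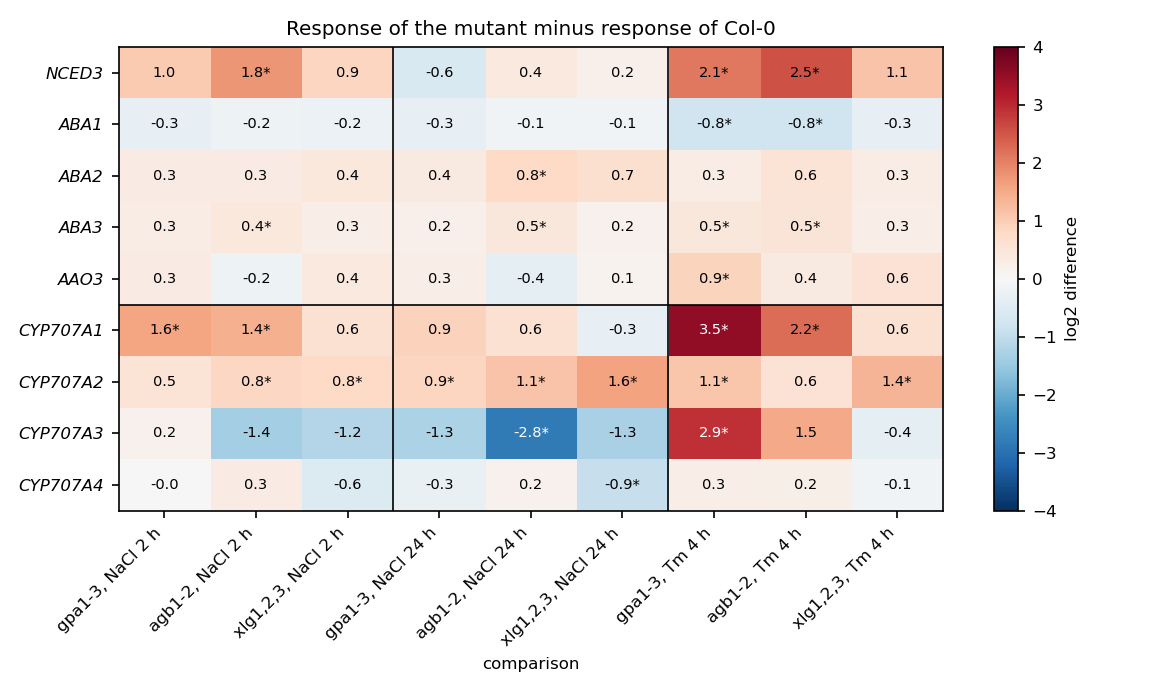
Difference of the log2 response, mutant minus Col-0 (colour and number), for each tested gene and treatment. An asterisk marks an edgeR adjusted p under 0.05. The CYP707A2 row is positive throughout, and the largest value is CYP707A1 in gpa1-3 after tunicamycin.

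Taken as shares of the summed hydroxylase level per length, the makeup of the family changed with each treatment. In Col-0 at 0 h CYP707A1 made up 58.8% ± 6.17 of the summed RPKM and CYP707A3 24.9% ± 5.24 (SD, n = 3). At 2 h of NaCl CYP707A2 held 40.1% ± 3.46 and CYP707A4 29.1% ± 3.00, and at 24 h CYP707A3 held 64.0% ± 5.79. After tunicamycin CYP707A2 held 43.3% and 51.7% in the 2 libraries. In libraries labelled agb1-2 CYP707A3 already held 64.7% ± 6.44 at 0 h. The summed level itself changed less than its makeup. In Col-0 it was 30.3 ± 5.26 RPKM at 0 h, 39.6 ± 3.77 at 2 h, 48.4 ± 12.5 at 24 h and 15.9 and 17.1 RPKM after tunicamycin. In gpa1-3 after tunicamycin it was 38.9 and 57.3 RPKM, above both Col-0 libraries.

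NCED3 against the summed hydroxylases gives a transcript balance of synthesis and catabolism. Per 100 units of summed CYP707A RPKM, NCED3 stood at 3.41 ± 0.1 in Col-0 at 0 h (SD, n = 3), from 3.35 to 3.53. At 0 h gpa1-3 lay above this range, at 4.10 to 6.78, libraries labelled agb1-2 below it, at 0.368 to 3.21, and xlg1,2,3 overlapped it, at 1.66 to 5.78. At 2 h of NaCl the ratio stood at 10.5 ± 3.21 in Col-0, 20.3 ± 1.72 in gpa1-3, 17.7 ± 4.72 in libraries labelled agb1-2 and 19.7 ± 3.15 in xlg1,2,3. Each mutant library lay above the highest Col-0 library, at 14.0. The same was so at 24 h, when Col-0 was at 4.30 ± 0.753 with a highest library of 4.83, and the lowest libraries of the mutants stood at 5.06 in gpa1-3, 5.66 in libraries labelled agb1-2 and 6.79 in xlg1,2,3. Mean NCED3 itself at 24 h was 4.55, 3.98 and 7.70 CPM in this order, against 5.68 CPM in Col-0, and was not called different. The summed CYP707A level then was 32.9, 24.5 and 36.25 RPKM, against 48.4 RPKM in Col-0. A higher ratio at 24 h is thus not a higher NCED3 level in gpa1-3 or in libraries labelled agb1-2. After tunicamycin the higher Col-0 library was at 3.40, and the lower mutant libraries were at 5.41, 5.50 and 3.65 in the same order. This ratio of transcripts is no measure of the hormone, and no test was made on it.

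**Figure D5:**
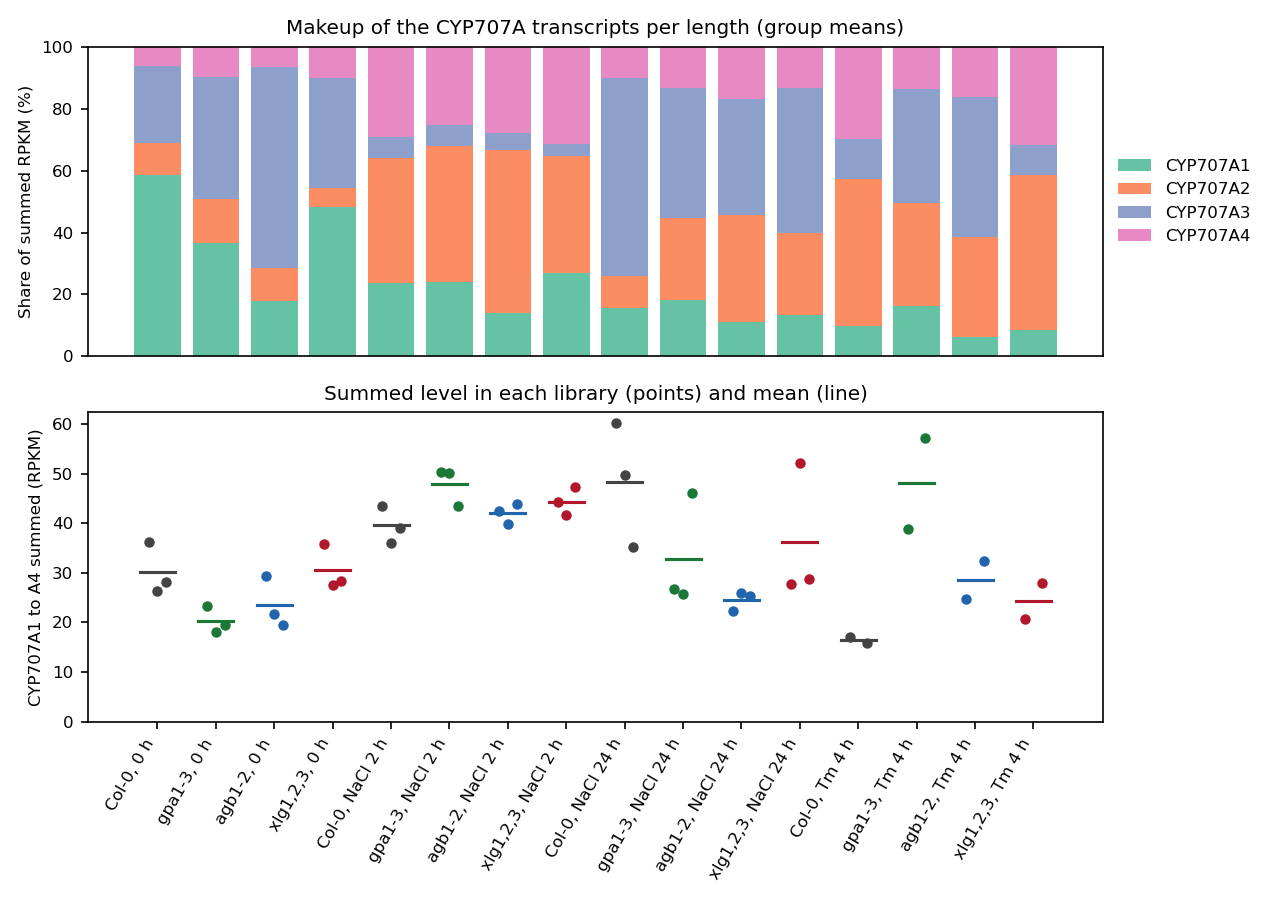
Top, share of each hydroxylase gene in the summed RPKM of the 4 genes (percent, group means) and bottom, that sum in each library (points, RPKM) with its mean (line), for the 16 groups. CYP707A1 leads in Col-0 at 0 h (58.8%) and CYP707A3 at 24 h of NaCl (64.0%).

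Other genes of the pathway were followed in 4 lists with 29 genes, of which 25 were tested. In Col-0, 12 were called higher and 4 lower at 2 h of NaCl, 15 and 3 at 24 h, and 14 and 3 after tunicamycin, beside the shares of all genes given above. At 2 h UGT71B6, a glucosyltransferase that conjugates ABA, rose by 2.73 (SE 0.19), and UGT71C5, another ABA glucosyltransferase, fell by 1.03. NCED4, a carotenoid cleavage dioxygenase of the NCED family, rose by 1.87, and the lycopene cyclase gene LUT2 by 1.15. At 24 h the phytoene synthase gene PSY rose by 1.3 and NPF4.6, an ABA importer gene, by 0.94. After tunicamycin PSY rose by 1.97, LUT2 by 1.80 and the lycopene cyclase gene LYC by 1.40, while UGT71C5 fell by 1.44. Of the 12 upstream carotenoid genes, 9 were called higher by edgeR after tunicamycin in Col-0 and none lower, where 28.2% of all genes were called higher. In gpa1-3 3 of the 12 were called higher (25.4% of all genes), in libraries labelled agb1-2 3 (22.9%) and in xlg1,2,3 4, with 2 lower (26.1% of all genes higher). The median change over the 12 was 0.49 in Col-0 and 0.06, 0.02 and 0.08 in these mutants, against a median over all genes between 0 and 0.01 in each genotype. In the same order of mutants, 2, 7 and 3 of the 12 were called higher than in Col-0 at 0 h and none lower. After tunicamycin 4, 0 and 4 were called lower than in Col-0 and none higher. The difference of responses was called negative in 8, 7 and 5 and positive in none. Of all genes, 13.7%, 31.6% and 16.3% were called in either direction at 0 h and 19.9%, 8.87% and 13.2% after tunicamycin. For the difference the shares were 15.9%, 11.4% and 5.71%.

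The genes whose pattern was most like that of a member were taken as the 3 with the highest Pearson r of log2 CPM over the 16 group means, which share libraries and normalization. NCED3 was most like AT5G15190 (r = 0.97), AT4G16146 (r = 0.96) and NAC032 (r = 0.96). CYP707A3 was most like PHI-1 (r = 0.95), AT1G74450 (r = 0.95) and PUP14 (r = 0.95). CYP707A4 was most like HB-12 (r = 0.98), BAC2 (r = 0.97) and FUT11 (r = 0.97). FUT11 carries the locus number next after that of CYP707A4 (AT3G19280 and AT3G19270). CYP707A2 was most like AT3G49400, BCA6 and AT3G11690 (r = 0.97 each), and CYP707A1 was most like AT3G46220 (r = 0.95), ORP3C (r = 0.93) and KMS1 (r = 0.93). Among the members themselves, CYP707A4 and AAO3 had r = 0.92, CYP707A4 and CYP707A2 r = 0.91, and CYP707A4 and CYP707A3 r = -0.61 over the same 16 means.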

How the data were processed

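The deposited Arabidopsis table holds expected counts per gene, which were rounded to whole numbers for testing (1.35% of values changed). The submitters' processing notes name STAR and TAIR10, with versions and counting options not given in the sources used here, so reads shared by near-identical genes may have been split between them. Samples were grouped by the labels. Depth was 14.1 to 39.0 M counts per library and 14.1 to 16.6 M in replicate 3. No 2 libraries were identical, and p-values measure only the spread between these libraries, which may be technical.

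Tests used edgeR 4.0.16 in R 4.3.3: filterByExpr (minimum count 10, minimum total 15), TMM scaling, 1 mean per group over 44 libraries in 16 groups, quasi-likelihood F-tests of 34 comparisons and Benjamini-Hochberg adjustment over 20858 genes. The SE is the log2 change divided by the root of F. RPKM used the exon length of the TAIR10.1 annotation, and motifs were searched on both strands of the 300 bases upstream. Upstream sequences are from the RefSeq TAIR10.1 genome. The procedure was tested on simulated data.

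Members and lists were chosen with earlier results of these data known. The rule names all members in every comparison, at most 4 called genes of the pathway lists with the smallest adjusted p, and the 3 genes most alike (log2 of CPM plus 0.5). As an exception, most members not called against Col-0 or in differences of responses are given as counts. Markers were summed by tissue. Alternatives were DESeq2 1.42.0, DESeq2 size factors in edgeR, no filter on low counts, the replicate number as a block, only the groups compared, and each library left out. Replicate numbers come from the labels, and nothing in them ties a number to a shared batch or day. Deviations of same-numbered libraries correlated with a median r of 0.07 over 198 pairs of libraries, against -0.02 for other numbers. All 3 pairs exceeded 0.1 in gpa1-3 at 2 h against 0 h, in the 3 mutants against Col-0 at 0 h and in libraries labelled agb1-2 against Col-0 at 2 h.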

Additional observations from a re-analysis of the deposited data

Results flagged for a closer look

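The values here are differences between a mutant's response and that of Col-0, for which the edgeR test of the difference itself was called. All are log2 values of the mutant's change minus the Col-0 change, and all share the Col-0 libraries. Each holds the 0 h levels of both genotypes as well as the treated levels.

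For 2 h of NaCl, CYP707A1 differed by 1.56 in gpa1-3 (SE 0.36, edgeR adjusted p = 0.00818) and by 1.41 in libraries labelled agb1-2 (SE 0.37, edgeR adjusted p = 0.00862). Col-0 fell while gpa1-3 rose, and the 0 h levels differed. NCED3 differed by 1.78 in libraries labelled agb1-2 (SE 0.57, edgeR adjusted p = 0.033). That value draws on 3 counts of NCED3 in replicate 3 at 0 h, and the call ended without that library, among 4 single libraries of 12. ABA3 differed by 0.42 and CYP707A2 by 0.82 in libraries labelled agb1-2, and CYP707A2 by 0.80 in xlg1,2,3. The ABA3 call and the xlg1,2,3 call of CYP707A2 each ended for 6 of 12 single libraries left out.

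For 24 h of NaCl, CYP707A2 differed by 0.87 in gpa1-3, by 1.14 in libraries labelled agb1-2 and by 1.60 in xlg1,2,3 (edgeR adjusted p = 0.0137, 0.000328 and 2.65e-05). The gpa1-3 call ended without replicate 1 of either genotype at 0 h. CYP707A3 differed by -2.82 in libraries labelled agb1-2 and CYP707A4 by -0.92 in xlg1,2,3. ABA2 differed by 0.79 and ABA3 by 0.46 in libraries labelled agb1-2. Against Col-0 both genes were called lower in these libraries at 0 h and were not called at 24 h. CYP707A4 in xlg1,2,3 was called higher than Col-0 at 0 h and was not called at 24 h.

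For tunicamycin, gpa1-3 differed in 7 of 9 genes: CYP707A1 by 3.54 (edgeR adjusted p = 2.33e-06), CYP707A3 by 2.92, NCED3 by 2.11, CYP707A2 by 1.12, AAO3 by 0.88, ABA3 by 0.46 and ABA1 by -0.79. The calls of NCED3, ABA1, ABA3 and CYP707A3 each ended without Col-0 tunicamycin replicate 2. Over all single libraries left out, the edgeR adjusted p of these 4 reached 0.257, and the CYP707A3 difference ran from 2.17 to 4.66. In libraries labelled agb1-2, NCED3 differed by 2.54, CYP707A1 by 2.23, ABA3 by 0.52 and ABA1 by -0.81. The NCED3, ABA3 and ABA1 calls ended without the same Col-0 library. CYP707A1 read 3.83 CPM in libraries labelled agb1-2 against 3.43 CPM in Col-0 after tunicamycin, and 8.77 against 37.8 CPM at 0 h (means). ABA3 read 18.6 against 19.8 CPM after tunicamycin and 18.8 against 28.6 CPM at 0 h. In gpa1-3 and in libraries labelled agb1-2, ABA1 was called higher than Col-0 at 0 h and was not called after tunicamycin. In xlg1,2,3 CYP707A2 differed by 1.37 (edgeR adjusted p = 0.000814).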

How the results depend on the processing

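Of 306 tests of single members, 140 were called and none changed sign under any alternative. Of the 140 calls, 96 were kept with each library left out and under each other alternative except leaving out every replicate 3. With 1 library left out, the counts of calls were 6 to 8, 6 to 7 and 4 to 7 for Col-0 at 2 h, 24 h and tunicamycin against 0 h, 4 to 7 for 24 h against 2 h, and 20 to 22, 18 to 20 and 13 to 16 for the mutants. Against Col-0 they were 8 to 10, 3 to 6, 6 to 9 and 6 to 10 at 0 h, 2 h, 24 h and tunicamycin, and for differences of responses 3 to 6, 6 to 8 and 5 to 13. Without replicate 3, an alternative chosen after the library sizes were seen, mutants against Col-0 at 2 h gave 2 calls in place of 6, and differences of the 2 h response 3 in place of 6. The level of CYP707A4 at 2 h in libraries labelled agb1-2 was 11.8 RPKM with DESeq2 size factors and 11.7 RPKM by TMM. Depth limits NCED3 in replicate 3 at 0 h and NCED5 throughout. With only the groups compared, 13 calls were lost and 9 gained over the 306 tests, the most of the alternatives that kept every library. Lost calls include CYP707A2 in xlg1,2,3 against Col-0 at 0 h (edgeR adjusted p = 0.0635). The ABA1 differences of the tunicamycin response in gpa1-3 (0.0563) and libraries labelled agb1-2 (0.0621) were lost as well. With the replicate number as a block, 7 of 306 calls changed. CYP707A1 in libraries labelled agb1-2 at 24 h (edgeR adjusted p = 0.0535) and ABA3 in xlg1,2,3 after tunicamycin (0.0554) were lost. AAO3 against Col-0 at 2 h was gained in libraries labelled agb1-2 (0.0175) and xlg1,2,3 (0.0284), as were differences of responses of AAO3 in libraries labelled agb1-2 at 24 h (0.0396) and in xlg1,2,3 after tunicamycin (0.0123), and of ABA2 in xlg1,2,3 at 24 h (0.0481). The causes were not tested.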
